A study of Mus musculus with 8 samples.

Results

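The genes that hold cells out of the division cycle were followed in the E14.5 fetal liver of wild-type (WT) and Eklf knockout (KO, Eklf-/-) mouse embryos. The 9 genes were Cdkn1a, Cdkn1b, Cdkn1c, Cdkn2c, Cdkn2d, Btg1, Btg2, Rbl2 and Ccng2. They were taken by symbol, with every probe set of the array that the platform annotation gives a single one of these symbols. This gave 16 of the 45101 probe sets and 9 of the 18195 genes named in this way. The array was an Affymetrix mouse expression array, and each of the 4 WT and 4 KO arrays held total RNA of a whole fetal liver. The KO embryos were homozygous for a deleted Eklf (Klf1) gene, in a B6 line made with a BAC construct carrying an engineered Eklf locus and with E2A-Cre mice, and such embryos die in utero at about this age. The WT embryos carried the intact gene and had the same age. WT arrays are numbered 1 to 4 and KO arrays 2 to 5. Nothing in the labels says that embryos of the same number were littermates.

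Cyclin-dependent kinases, bound to cyclins, drive a cell from G1 into S phase and through mitosis. The CIP/KIP proteins, encoded by Cdkn1a (p21), Cdkn1b (p27) and Cdkn1c (p57), bind and block whole cyclin-kinase complexes, whereas the INK4 proteins, among them those encoded by Cdkn2c (p18) and Cdkn2d (p19), bind CDK4 and CDK6 and keep the D cyclins off them. Rbl2 encodes the pocket protein p130, which with E2F4 or E2F5 and the DREAM complex silences cell cycle genes in resting cells. Btg1 and Btg2 encode small antiproliferative proteins that recruit the CCR4-NOT deadenylase, and Ccng2 encodes cyclin G2, an unconventional cyclin that is high in cells leaving the cycle. In the fetal liver most cells are erythroblasts, which divide a few more times and then leave the cycle as they mature. EKLF is an erythroid transcription factor that binds CACCC elements.

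The promoters of the 4 genes with the largest differences are shown, because EKLF acts through CACCC elements and these genes moved in opposite directions. Each is the stretch of 250 bases before the most upstream RefSeq start (build GRCm38.p6), written along the gene's own strand. Capitals mark CACCC and CCNCNCCC, a looser binding sequence of EKLF that need not contain CACCC, where they occur on either strand. A match on the opposite strand is shown as it reads on this one. Cdkn2c lies at chr4:109666757-109667006 on the minus strand and Cdkn2d at chr9:21291210-21291459 on the minus strand. Cdkn1a lies at chr17:29090729-29090978 on the plus strand and Ccng2 at chr5:93267323-93267572 on the plus strand. The first pair was lower in KO and the last pair higher.
Cdkn2c: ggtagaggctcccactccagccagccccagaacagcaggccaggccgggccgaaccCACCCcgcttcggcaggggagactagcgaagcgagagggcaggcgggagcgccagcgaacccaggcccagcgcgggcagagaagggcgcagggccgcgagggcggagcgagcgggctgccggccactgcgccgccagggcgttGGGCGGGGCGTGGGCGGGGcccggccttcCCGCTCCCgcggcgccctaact
Cdkn2d: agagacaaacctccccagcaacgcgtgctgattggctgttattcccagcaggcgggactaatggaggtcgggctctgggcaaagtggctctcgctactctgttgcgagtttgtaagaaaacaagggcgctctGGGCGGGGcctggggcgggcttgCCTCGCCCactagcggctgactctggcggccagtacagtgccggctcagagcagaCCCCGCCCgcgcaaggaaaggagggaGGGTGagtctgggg
Cdkn1a: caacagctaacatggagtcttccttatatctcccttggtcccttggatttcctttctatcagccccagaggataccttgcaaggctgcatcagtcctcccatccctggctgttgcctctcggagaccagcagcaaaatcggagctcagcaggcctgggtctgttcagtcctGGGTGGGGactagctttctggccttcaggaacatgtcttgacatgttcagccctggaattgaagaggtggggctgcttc
Ccng2: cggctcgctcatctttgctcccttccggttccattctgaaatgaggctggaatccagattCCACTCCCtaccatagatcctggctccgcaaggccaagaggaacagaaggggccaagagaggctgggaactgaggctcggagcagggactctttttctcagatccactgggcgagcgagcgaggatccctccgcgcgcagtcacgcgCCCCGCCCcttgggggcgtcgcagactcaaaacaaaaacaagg
The upstream window of Cdkn2c held 1 CACCC, 194 bases before the start, and 4 matches of CCNCNCCC within 51 bases of it. That of Cdkn2d held 1 CACCC and 3 matches of CCNCNCCC, that of Cdkn1a 1 of each at the same place, 79 bases before the start, and that of Ccng2 2 matches of CCNCNCCC and no CACCC. The window before the other Cdkn1a start held 4 matches of CCNCNCCC and no CACCC, and that before the other Cdkn2c start 1 CACCC and no CCNCNCCC. The RefSeq table held 10 such windows for 8 of the 9 genes (all but Cdkn1c). CACCC occurred in 5 of the 10 windows and CCNCNCCC in 8 of the 10. Among all 32851 promoter windows of the same length, 52.0% held CACCC and 45.9% held CCNCNCCC. GTAAACA, a forkhead motif searched in the same way, was found in 1 of the 10, that of Btg1, and in 3.17% of all windows. These matches describe the letters only, and binding was not measured on these arrays.

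Klf1 itself was lower in KO, with log2 signals of 13.87 to 14.04 in WT and 10.56 to 10.81 in KO (log2 difference, KO minus WT, -3.29, SE 0.099, adjusted p = 5.9e-07 from limma). The sources used here do not say whether its probe set lies in the deleted part. Signals are deposited at a common trimmed mean, so that every difference is relative to the array as a whole. A control mix of bacterial transcripts added at hybridization read lower in KO (11.54 to 11.85 on the log2 scale) than in WT (12.36 to 12.55). WT replicate 1 differed from the other WT arrays in Xist (13.03 against at most 6.84), and the KO arrays read 5.37 to 6.09. Erythroblast markers were mostly lower in KO (7 of 8 tested, summed signal 44317 to 47749 against 104210 to 107934 in WT, with Alas2 and Slc4a1 among the lower). With hybridization controls as the scale, 4 of these 8 were lower and 1 higher. The 2 other tested probe sets of Slc4a1 were called in opposite directions, at -1.46 and 1.46. Hepatocyte markers were lower for 8 of 10 (Alb and Afp among them, but 0 of 10 after quantile normalization or with hybridization controls as the scale) and higher for 1, and endothelial markers were higher for 9 of 10, among them Pecam1 but not Cdh5 (4 of 10 after quantile normalization, and 6 of 10 at a common 75th percentile or with poly-A controls). Of the progenitor markers 2 of 6 were higher (Kit but not Gata2), of the megakaryocyte markers 4 of 6 (Itga2b but not Pf4), of the stellate cell markers 5 of 8 (Col1a1 and Col1a2 among them) and of the granulocyte markers 2 of 9 (Mpo but not Elane), and 1 of 8 macrophage markers was lower (neither Adgre1 nor Csf1r). In whole livers, fewer cells of a type and less RNA per cell cannot be told apart, and the labels give all WT arrays 1 sample code and all KO arrays another, so that a preparation effect cannot be told apart from genotype. What these shifts contribute to the values below was not tested.

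Of the 16 probe sets, 14 had a WT or KO mean above a signal of 100 and were tested. In KO, 6 were higher (both of Cdkn1a, of which the dimmer entered the test only through its KO level, both of Ccng2 and both of Rbl2), 3 were lower (those of Cdkn2c and Cdkn2d and the brightest of Btg2) and 5 did not pass. The background was high, since 52.2% of the 23379 probe sets tested on the array passed, 34.4% as higher and 17.7% as lower, so that these counts say nothing particular about the 9 genes. The share of all calls that were higher was 66.0% on the deposited scale, 49.3% after quantile normalization, 40.7% with arrays set to a common 75th percentile, 97.2% with arrays set to the hybridization controls and 65.3% with arrays set to the poly-A controls. On the last 4 scales 4, 4, 10 and 5 of the 16 probe sets were higher, and 3 were lower on each, where the 10 include the dim Cdkn1b probe set, tested on that scale but not on the other 3. Over the whole array the median difference was 0.17 on the deposited scale and -0.033, -0.12, 0.95 and 0.075 on the other 4 in the same order. On the deposited scale the median was 0.49 over the 14 probe sets, in which several genes count more than once, and -0.25 over the 9 genes by brightest probe set. The same 6 probe sets had every KO array above every WT array, and the same 3 every KO array below, against 32.4% and 17.4% of all tested probe sets.

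**Figure D1:**
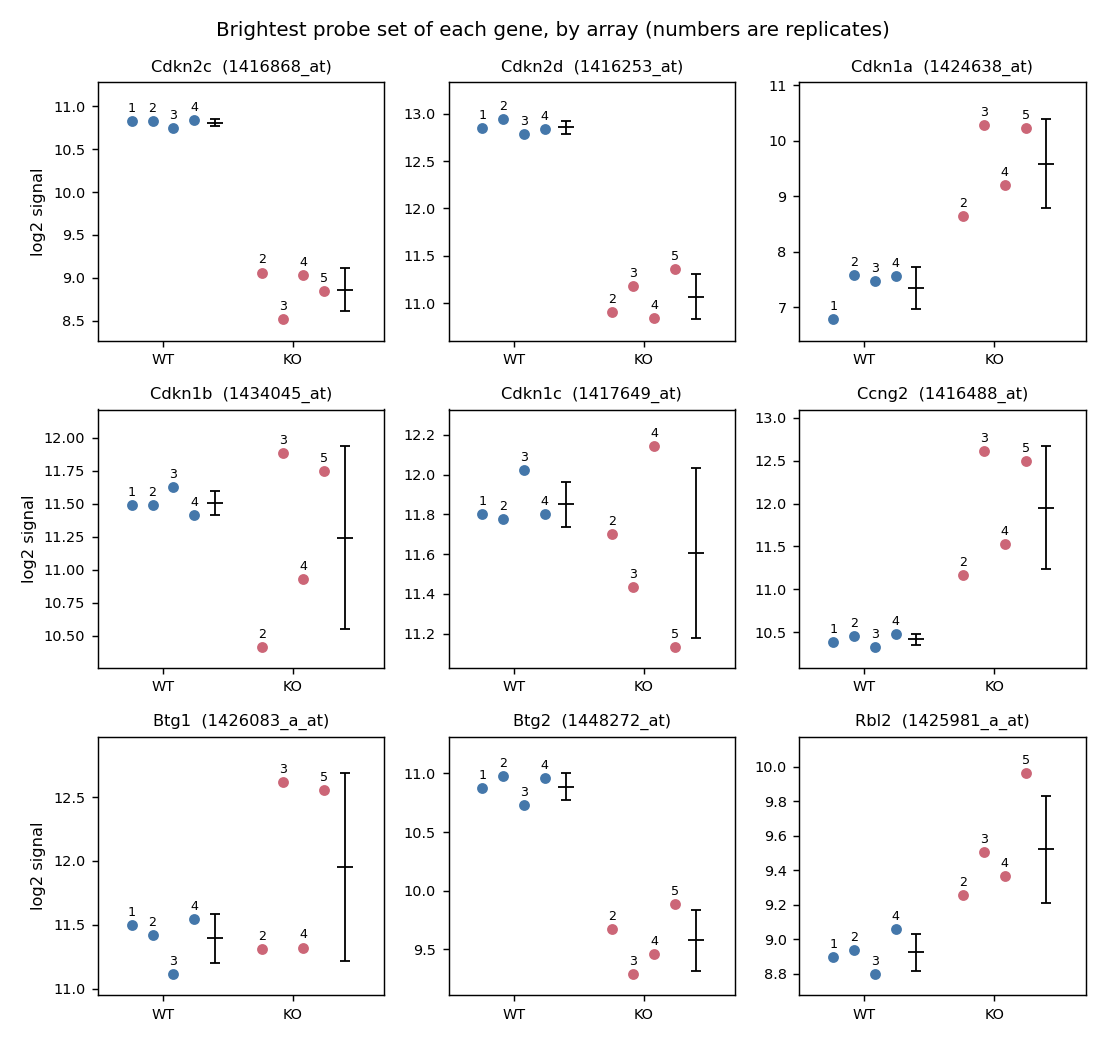
Log2 signal of the brightest probe set of each of the 9 genes on the 4 WT arrays (blue) and 4 KO arrays (red), with the replicate number above each point and the mean ± SD of each group beside it. The axes do not start at 0 and differ between genes. The KO points of Cdkn2c, Cdkn2d and Btg2 lie below all WT points, those of Cdkn1a, Ccng2 and Rbl2 above, and those of Cdkn1b, Cdkn1c and Btg1 overlap WT.

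Both INK4 genes fell. Cdkn2c, the gene of p18, read 10.83, 10.83, 10.74 and 10.84 on the log2 scale in WT (replicates 1 to 4, here and below) and 9.06, 8.51, 9.03 and 8.84 in KO (replicates 2 to 5). Every KO array was low, and the gap between the groups was several times the spread within either. The means were 10.81 ± 0.044 and 8.86 ± 0.25 (SD, n = 4 each), a difference of -1.95, SE 0.13, or 3.86-fold (adjusted p = 1.3e-05 from limma). Cdkn2d, the gene of p19, had log2 signals of 12.85, 12.95, 12.79 and 12.85 in WT and 10.90, 11.18, 10.84 and 11.36 in KO. Again no KO array came near WT. The means were 12.86 ± 0.066 and 11.07 ± 0.24 (SD, n = 4 each), a difference of -1.79, SE 0.13, or 3.46-fold (adjusted p = 1.8e-05 from limma). Each gene has 1 probe set, so neither difference could be checked on another. KO replicates 3 and 5 were the lowest for Cdkn2c and the highest for Cdkn2d. Cdkn2a and Cdkn2b, the other INK4 genes, stayed below the minimum signal and were not tested.

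The CIP/KIP genes did not move together. Cdkn1a, the gene of p21 and a main target of p53, rose. On the brighter, log2 signals were 6.78, 7.58, 7.48 and 7.56 in WT and 8.65, 10.28, 9.20 and 10.24 in KO replicates 2 to 5. All KO arrays lay above WT, but they fell into a lower pair (replicates 2 and 4) and a higher pair (replicates 3 and 5). The means were 7.35 ± 0.38 and 9.59 ± 0.81 (SD, n = 4 each), a difference of 2.24, SE 0.38, or 4.74-fold (adjusted p = 0.0013 from limma). On the other probe set the KO arrays read 5.48, 7.80, 7.56 and 8.03, against 3.53 to 5.21 in WT. WT lay below a signal of 100 there, so that this probe set was tested only through its KO level and the fold is a bound, at least 1.49 (adjusted p = 0.0027 from limma). It adds no independent support. KO replicate 2 lay just above the highest WT array on that probe set.

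Cdkn1b, the gene of p27, did not pass the test, and its KO arrays lay on both sides of WT. Log2 signals were 11.49, 11.49, 11.63 and 11.41 in WT and 10.42, 11.88, 10.93 and 11.75 in KO replicates 2 to 5. KO replicates 2 and 4 were below every WT array, and KO replicates 3 and 5 above every WT array. The mean difference was -0.26 (95% interval -0.94 to 0.42, adjusted p = 0.49 from limma), an average over KO arrays that themselves spanned 1.46, against 0.21 in WT. The other Cdkn1b probe set had both group means below a signal of 100 and was not tested. Cdkn1c, the gene of p57 and an imprinted gene, had log2 signals of 11.80, 11.78, 12.02 and 11.80 in WT and 11.70, 11.44, 12.14 and 11.14 in KO. KO replicate 4 was above WT and the other 3 KO arrays below. The difference was -0.25 (95% interval -0.70 to 0.21, adjusted p = 0.33 from limma). Without KO replicate 4 it was -0.43 and passed (adjusted p = 0.048 from limma), and with the hybridization controls as the scale the signs of both turned, to 0.49 for Cdkn1b and 0.50 for Cdkn1c.

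Ccng2, the gene of cyclin G2, rose on both of its probe sets. On the brighter, log2 signals were 10.39, 10.46, 10.33 and 10.48 in WT and 11.16, 12.62, 11.53 and 12.50 in KO replicates 2 to 5. WT arrays were tightly grouped, and KO replicates 3 and 5 were again the highest. The difference was 1.54, SE 0.31, or 2.91-fold (adjusted p = 0.0034 from limma). On the other probe set the KO arrays read 9.83, 11.29, 10.19 and 11.03 and the WT arrays 8.61 to 8.95, a difference of 1.75, SE 0.30, or 3.37-fold (adjusted p = 0.0016 from limma). The arrays ran in the same order on both probe sets of Ccng2 in KO.

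Rbl2, the gene of the pocket protein p130, was modestly higher. Its brighter probe set read 8.90, 8.94, 8.80 and 9.06 in WT and 9.26, 9.50, 9.36 and 9.96 in KO replicates 2 to 5. The lowest KO array was only just above the highest WT array. The difference was 0.60, SE 0.16, or 1.51-fold (adjusted p = 0.013 from limma), and on the other probe set 0.60, SE 0.20 (adjusted p = 0.032 from limma). The brighter probe set lost the call after quantile normalization, where the difference was 0.38 (adjusted p = 0.077 from limma), and at a common 75th percentile, where it was 0.33 (adjusted p = 0.096 from limma). The dimmer lost it on both of these scales too, with poly-A controls (adjusted p = 0.062 from limma), and without WT replicate 3, WT replicate 4, KO replicate 3 or KO replicate 5 (adjusted p = 0.084, 0.080, 0.059 and 0.062 from limma).

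On the deposited scale the BTG genes gave a fall on 1 probe set and no call on the rest. Btg2, induced by p53 and by differentiation signals, read 10.88, 10.98, 10.73 and 10.96 in WT and 9.67, 9.29, 9.46 and 9.89 in KO on its brighter probe set. All KO arrays were below WT. The difference was -1.31, SE 0.14, or 2.48-fold (adjusted p = 1.4e-04 from limma). Its other probe set read 10.03, 9.91, 9.85 and 9.85 in WT and 9.72, 9.74, 10.17 and 10.04 in KO. There KO replicates 2 and 3 lay below every WT array and KO replicates 4 and 5 above every WT array. The 95% interval of the difference ran from -0.28 to 0.30 (adjusted p = 0.95 from limma). With hybridization controls as the scale this dimmer probe set was called higher, at 0.76 (adjusted p = 0.0034 from limma). The brighter was still called lower there, at -0.56 (adjusted p = 0.019 from limma). The gap between these 2 probe sets was itself set against genotype. The dimmer less the brighter lay between -1.11 and -0.85 in WT, but between 0.050 and 0.71 in KO. A two-sided exact permutation test gave p = 0.029, the smallest p possible with 70 assignments, and 0.071 after adjustment over the 5 genes with such a pair. The sources used here do not say where in the transcript the probe sets lie. The 3-prime less 5-prime signal of the Actb control, a sign of RNA quality, was 0.76 to 0.93 in the WT arrays, with KO at 0.49 to 0.61. That of Tfrc went the other way (1.67 to 1.89 in the WT arrays, with KO at 1.92 to 2.72), and for Gapdh the groups overlapped, with a mean difference of -0.034 (p = 0.40 in an exact permutation test). Their part in the gap was not tested. Ccng2 had the same p with a much smaller gap of 0.22, and the pairs of Cdkn1a, Btg1 and Rbl2 gave p = 0.29, 0.29 and 1 in the exact permutation test.

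Btg1 had 3 probe sets, of which 2 were tested, and neither passed. The brighter read 11.50, 11.42, 11.12 and 11.55 in WT and 11.31, 12.62, 11.32 and 12.56 in KO replicates 2 to 5. KO replicates 2 and 4 lay within the WT range and KO replicates 3 and 5 about 1 unit above it. The difference was 0.56 (95% interval -0.18 to 1.29, adjusted p = 0.18 from limma), and on the other tested probe set 0.43 (adjusted p = 0.25 from limma). The untested probe set was below a signal of 100 in both groups.

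**Figure D2:**
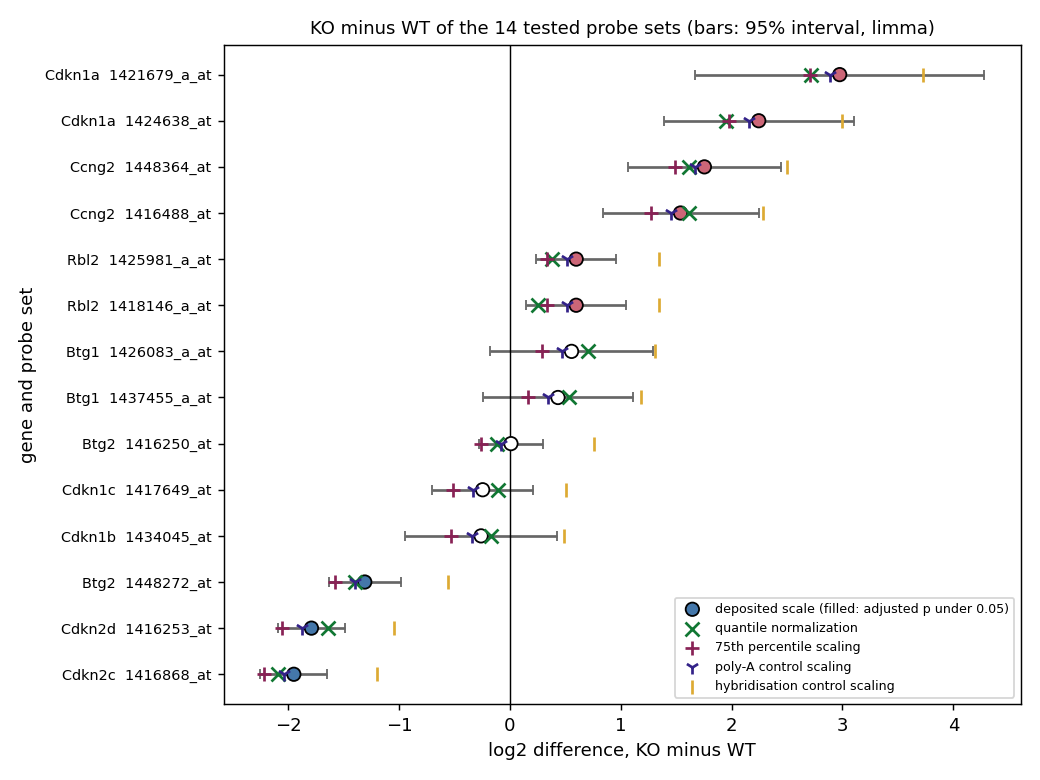
Log2 difference, KO minus WT, of the 14 tested probe sets with the 95% interval from limma (circles, filled where the adjusted p was under 0.05), and the same difference after 4 other scalings (crosses and ticks). Both probe sets of Cdkn1a and of Ccng2 stay right of 0 on every scale and those of Cdkn2c, Cdkn2d and the brighter of Btg2 left of 0, whereas Cdkn1b and Cdkn1c turn from -0.26 and -0.25 to 0.49 and 0.50 with hybridization controls, and the dimmer of Btg2 changes side between scales.

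The spread among KO embryos was part of the pattern. Over all tested probe sets the median range of the 4 arrays was 0.54 in KO and 0.36 in WT. The KO range was 1.64 for Cdkn1a, 1.46 for Ccng2, 1.46 for Cdkn1b, 1.31 for Btg1 and 1.01 for Cdkn1c. It was smaller for Rbl2 (0.71), Btg2 (0.60), Cdkn2c (0.55) and Cdkn2d (0.52), each on the brightest probe set. In 10 of the 14 tested probe sets KO replicates 3 and 5 were both above KO replicates 2 and 4, against 26.8% of all tested probe sets, while 29.2% of all ran the opposite way. These pairs were formed after the values were seen, and several genes count more than once. The count therefore says nothing particular about the 9 genes. The mean of replicates 3 and 5 exceeded that of 2 and 4 by 1.34 for Cdkn1a, 1.27 for Btg1, 1.22 for Ccng2 and 1.14 for Cdkn1b. For Cdkn2c and Cdkn1c it was lower, by -0.37 and -0.64. These KO arrays also differed in other ways. KO replicates 3 and 5 had the higher poly-A controls (8.30 and 8.20 on the log2 scale, against 7.89 and 7.72), the higher summed stellate cell markers (26656 and 23426, against 17592 and 19043) and the higher summed endothelial markers (6407 and 5976, against 4656 and 5274). KO replicate 5 alone was high in granulocyte markers (123198, against 48981 to 58336 in the other KO arrays). The part of these differences in the spread of the 9 genes was not tested, and no test was made between the pairs, which were drawn from the values.

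**Figure D3:**
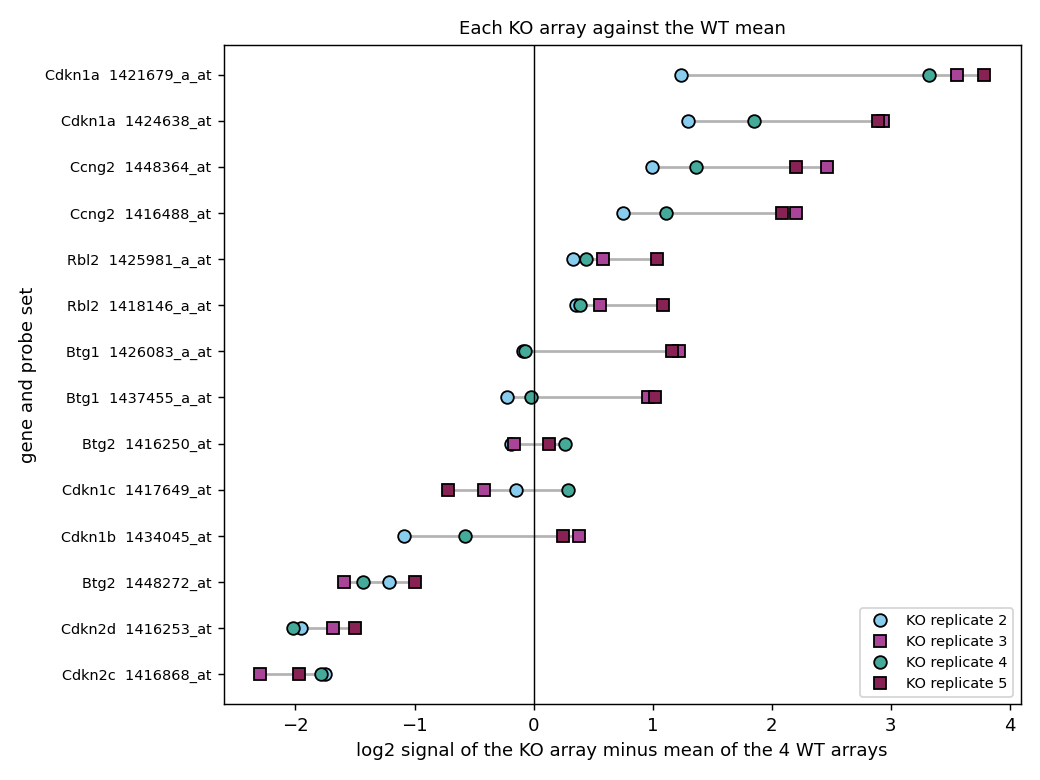
Log2 signal of each KO array minus the mean of the 4 WT arrays, for the 14 tested probe sets (circles for KO replicates 2 and 4, squares for 3 and 5). The squares lie to the right of the circles for Cdkn1a, Ccng2, Rbl2, Btg1, Cdkn1b and Cdkn2d, and to the left for Cdkn2c and Cdkn1c. The KO arrays of Cdkn1b fall on both sides of 0. Differences are on the deposited scale. The hybridization scaling would move the points right by 0.75 on average, but by unequal amounts. Its controls read 11.68, 11.85, 11.54 and 11.66 in KO replicates 2 to 5.

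The genes whose arrays ran most like those of Cdkn1a were sought by the root mean square distance of the 8 log2 values, each gene taken relative to its own WT mean, among 11291 other genes. The nearest were Slc7a3, which encodes a cationic amino acid transporter (distance 0.21, with a WT mean of 6.47 that lay below the minimum of 6.64), Plod2, which encodes a collagen lysyl hydroxylase (0.27), and Vldlr, which encodes a lipoprotein receptor (0.29). The differences of Plod2 and Vldlr were 2.46 and 2.58. For Cdkn2c the nearest were Lmo2, which encodes a bridging factor of erythroid transcription complexes (0.10), Rrm2, which encodes a subunit of ribonucleotide reductase (0.11), and Slc66a2 (0.12), with differences of -1.89, -1.98 and -1.96.

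Around these inhibitors, 81 further genes of the cell cycle and of growth arrest were listed, of which 74 were tested, each by its brightest probe set. In KO 15 were higher, 28 lower and 31 did not pass, against 25.6% higher and 21.0% lower of all 11292 genes so represented. These counts became 46 higher and 4 lower with hybridization controls as the scale, and 5 higher and 39 lower at a common 75th percentile. Their median difference was -0.087, against 0.060 over all genes. Called counts of single lists follow on the deposited scale, with the medians under other scales where these change sign. Trp53, Cnot1, Btg3 and Ccnb1 were not analysed here, and Cdkn2a, Cdkn2b and Rbx1 stayed below the minimum.

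All 9 proliferation markers, genes of DNA replication and mitosis, fell on the deposited scale by their brightest probe sets. Their median was -0.59, and it became 0.15 with the hybridization controls as the scale, where 0 of the 9 passed. After quantile normalization 6 of the 9 were called lower, and with poly-A controls 7. Of the other tested probe sets, that of Top2a was called higher, at 0.88, and those of Mcm5 and Mcm2 had no call. Those called lower were 2 of 4 for Mcm3, 3 of 3 for Mcm7, and the single ones of Mcm4 and Mcm6. Pcna, the DNA polymerase clamp, fell by 1.17 and Mki67, the Ki-67 antigen, by 0.96 on the log2 scale. Among cyclins and their kinases 6 of 11 fell and 2 rose (median -0.33, or 0.42 with hybridization controls). Ccne2 and Ccne1, whose E cyclins activate CDK2 at the start of S phase, fell by 1.52 and 1.15. Ccnd2, the gene of cyclin D2 and a partner of the kinases that INK4 proteins block, rose by 1.60, and its 6 other tested probe sets were at 0.25 to 1.58, of which 4 passed. Ccnd3, the gene of cyclin D3, was at 0.26 and passed, but was at -0.0042 at a common 75th percentile. Cdk6 and Ccnd1 had no call on their brightest probe sets, at 0.23 and -0.33. The 2 other tested probe sets of Cdk6 were called higher, at 0.95 and 2.32. Of the 2 others of Ccnd1, 1 was called higher, at 1.21, and the other was at 0.28. Cdk6 and Ccnd1 were chosen here after their values were seen. The single tested gene of the remaining inhibitors, Cdkn3, whose phosphatase acts on CDK2 and which is high in dividing cells, fell by 0.98. Its 2 listed companions were the untested Cdkn2a and Cdkn2b.

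Of 13 genes of the list of pocket proteins, E2F partners and DREAM complex subunits, 7 fell and 1 rose, whereas with hybridization controls 2 fell and 6 rose (median -0.44 and 0.31). Tfdp2, which encodes a dimer partner of the E2F factors, fell by 1.41 and Mybl2, which encodes the B-Myb factor of dividing cells, by 1.32. Lin52, which encodes a subunit of the DREAM core, was at least 1.93-fold higher, but entered the test only through its KO level, as WT lay below a signal of 100. Rbl1, which encodes the related pocket protein p107, fell by 0.49 (adjusted p = 0.018 from limma) while Rbl2 rose, and Rb1 was at 0.16 (adjusted p = 0.47 from limma). E2f4, which encodes the usual E2F partner of p130, fell by 1.07 (adjusted p = 4.7e-04 from limma). Rbl1, Rb1 and E2f4 were chosen here after their values were seen. With hybridization controls as the scale the fall of Rbl1 turned to 0.26.

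Among the BTG/TOB family and the CCR4-NOT deadenylase that BTG proteins recruit, 4 of 13 rose and 1 fell (median 0.013, or -0.25 at a common 75th percentile and -0.073 with poly-A controls). Cnot6l, which encodes a deadenylase subunit of that complex, rose by 3.13, but its 3 other tested probe sets were at 0.30 to 0.63. Cnot3 rose by 0.52. Pabpc1, the poly(A)-binding protein gene, was called lower at -0.34, a sign that turned after quantile normalization (0.17) and with hybridization controls (0.41). Of the ubiquitin ligases that degrade CIP/KIP proteins, 4 of 9 fell and 1 rose (median -0.36, or 0.39 with hybridization controls). Rnf123, whose protein is the catalytic subunit of the ligase that marks p27 in G1, fell by 2.33, or 5.03-fold (adjusted p = 3.4e-06 from limma). Dtl, whose protein directs a ligase to p21 and other proteins, fell by 0.81 on its brightest probe set, but 4 of its 5 other tested probe sets were called higher. Cul4b, a scaffold gene of the same ligase family, rose by 0.54.

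The transcription factors known to act on these inhibitors were mostly without a call. Of 10 tested, 3 rose and 0 fell (median 0.21, or -0.073 after quantile normalization and -0.058 at a common 75th percentile). On those 2 other scales 3 rose and 2 fell, and 2 rose and 3 fell, in the same order. With hybridization controls all 10 rose, and with poly-A controls 2 rose and 0 fell. Smad4, the shared partner of the TGF-beta factors, rose by 1.33, and Klf6, which activates Cdkn1a, by 0.96. Myc, which represses Cdkn1a, was the remaining gene that rose, by 0.47. Foxo1 had no call on its brightest probe set (0.13), but its 2 other tested probe sets were called higher, at 0.63 and 1.83. Myc and Foxo1 were chosen here after their values were seen. Of 8 other genes of growth arrest, 4 rose and 0 fell (median 0.40). After quantile normalization or with poly-A controls 2 rose and 0 fell, and at a common 75th percentile 1 rose and 1 fell. Ddit4, a stress-induced inhibitor of mTOR signaling, rose by 2.64, or 6.24-fold, with KO values of 9.66, 11.58, 10.10 and 12.02, and KO replicates 3 and 5 were again the highest. Gadd45b, a stress-induced growth arrest gene, rose by 1.21, but its WT mean of 6.69 lay just above the minimum of 6.64. Its KO values were 7.21, 8.24, 7.35 and 8.77, against 6.10 to 7.21 in WT. The other tested probe set of Gadd45b was also called higher, at 1.29.

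**Figure D4:**
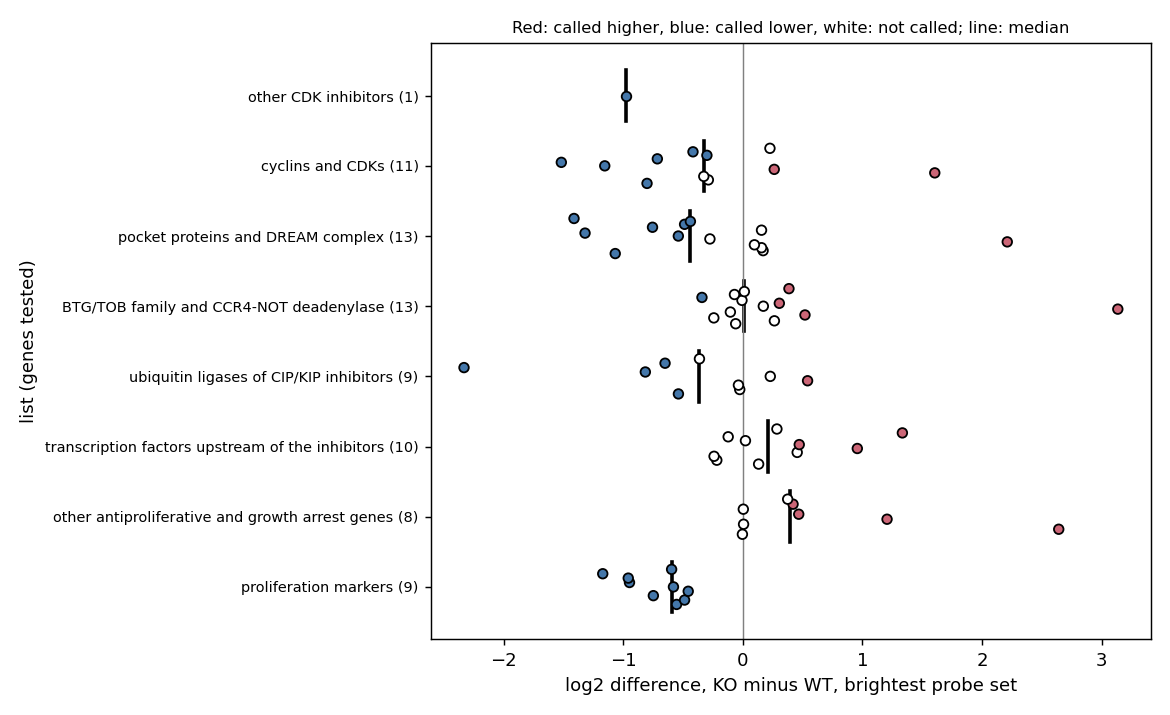
Log2 difference, KO minus WT, of each tested gene of 8 lists, by its brightest probe set on the deposited scale, with the list median as a line and the number of tested genes in brackets. All 9 proliferation markers lie left of 0, as do the medians of 5 of the 8 lists, and the hybridization scaling would move every point right by 0.75 and 4 of those 5 medians past 0, that of the single Cdkn3 excepted.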

How the data were processed

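Total RNA of the whole liver of 4 WT and 4 Eklf KO embryos at E14.5 was biotin-labelled and hybridized to Affymetrix arrays, 1 for each embryo. The table holds 45101 probe sets, more than the array version that the methods name. The authors computed MAS5 signals and deposited them as linear intensity values with a trimmed mean of 500.003 to 500.004 on every array (MAS5 and R 3.0.2 in the submitters' processing notes). No 2 arrays shared more than 1 identical value. Precision is set by having only 4 arrays in each group.

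Differences were taken on log2 intensities, without a pseudocount. A probe set entered the test where the mean of either group exceeded a signal of 100, and control probe sets did not. The test was limma 3.58.1 in R 4.3.3 (lmFit and eBayes, two-sided, genotype only) with Benjamini-Hochberg adjustment over all 23379, called under 0.05. A gene is represented by its brightest probe set, by the mean of the 8 arrays. Where a group mean lay below 100, the fold is against 100 and given as at least. Single values were compared by exact permutation over 70 assignments. Simulated data were used to test the limma fit. Tables were made in Python 3.11.15 (pandas 2.3.3, scipy 1.17.1). The 9 genes, the gene lists, the tests and the alternatives were chosen with earlier results of these data known. Named were the 9 genes, Klf1, in each list at most 2 called genes of each direction with the largest differences, the 3 nearest genes of 2 members and the first 2 markers of each cell type. Cdk6, Ccnd1, Rbl1, Rb1, E2f4, Myc, Foxo1, Top2a and the Mcm genes were named besides, after their values were seen. Alternatives were 4 scalings, pseudocounts of 16 and 64, other filters, limma's trend and robust options, the methods' t-test, a block for the replicate number, arrays left out in turn, and the mean of a gene's probe sets. Promoters come from RefSeq (GRCm38.p6).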

Additional observations from a re-analysis of the deposited data

Results flagged for a closer look

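In 3 of the 28 groups of 4 arrays that were examined, 1 array of a tested probe set lay far from the other 3 by Dixon's ratio. Cdkn1a on its brighter probe set read 6.78 in WT replicate 1, below 7.48 to 7.58 in the other WT arrays (ratio 0.87). WT replicate 1 is also the array that stood apart in Xist, and without it the Cdkn1a difference was 2.06 (adjusted p = 0.0041 from limma). Cdkn1c read 12.02 in WT replicate 3, above 11.78 to 11.80 in the others (ratio 0.90). Cdkn2c read 10.74 in WT replicate 3, below 10.83 to 10.84 (ratio 0.86), with a WT range of 0.096. Chance alone flags about 1 in 20 such groups.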

How the results depend on the processing

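Each difference was recomputed under 24 alternatives. Cdkn1a, Cdkn2c, Cdkn2d and Btg2, on their brightest probe sets, kept direction and call under every one. With hybridization controls as the scale, 19393 probe sets were higher and 562 lower, with 10 higher among the 16 of the 9 genes, 46 and 4 of the 74 further genes, and differences of 0.49 for Cdkn1b, 0.50 for Cdkn1c and 1.30 for Btg1, the last now called. At a common 75th percentile 5059 were higher and 7366 lower, 5 further genes were higher, and Rbl2 (0.33) lost its call, as it did after quantile normalization (0.38). Of the further genes 7 were higher with poly-A controls, 9 with no filter and 25 with the mean of a gene's probe sets. With the methods' t-test after Benjamini-Hochberg adjustment, 3 probe sets of the 9 genes were higher. The brightest of Rbl2 (0.60) and of Ccng2 (1.54) missed the threshold in that t-test (adjusted p = 0.058 and 0.055). The other Ccng2 probe set passed it, at 1.75 (adjusted p = 0.037). Same-numbered WT and KO arrays did not deviate together (correlations of -0.00084, -0.082 and -0.027 for replicates 2, 3 and 4), and with the replicate number as a block 2201 probe sets were lower, 7 further genes were higher and 17 lower, and Rbl2 (0.44) was not called. With KO replicates 2 and 4 alone, Cdkn1b was at -0.83 (called), Cdkn1c at 0.072 and Btg1 at -0.080. With KO replicates 3 and 5 alone the same genes were at 0.31, -0.56 and 1.19, each called. That split was drawn from values of these arrays and supports nothing about the genes. Leaving out 1 array at a time gave -0.47 to 0.015 for Cdkn1b and -0.43 to -0.089 for Cdkn1c, where the highest of Cdkn1b came without KO replicate 2 and the lowest of Cdkn1c, now called, without KO replicate 4. The causes of these changes were not tested.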
